A study of Mus musculus with 15 samples.

Results

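R2R3_KO erythroid cells, which lack the α-globin regulatory elements R2 and R3 together, were set against cells that lack R2 alone (R2_KO) or R3 alone (R3_KO). The question was whether the α-globin promoters of the pair changed their contacts by more than the sum of the changes in the singles. The members were chosen by their labels and not by a measured value: 3 R2R3_KO libraries, 1 R2_KO library, 1 R3_KO library and 3 control libraries, together 8 of the 15 samples of the series. All 8 came from mouse fetal livers taken at E12.5, strain F1 C57Bl6 / CBA, cultured in StemPro with erythropoietin, stem cell factor and dexamethasone for 5 to 7 days. Cells carrying Ter119, a surface marker of mature red cells, were removed, and the remaining precursors differentiated for 18 hours in more erythropoietin. Control cells carried no labelled deletion. The sources used here do not give whether a deletion was on one or both alleles, or whether embryos were pooled. The labels call replicates biological without naming litters, so a p-value covers only how far these libraries spread.

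NG Capture-C, the assay used, cuts crosslinked chromatin with DpnII, ligates neighbouring ends and enriches the products for chosen promoters with oligonucleotides. It gives a read count for each fragment that was ligated to a captured promoter (a viewpoint), so a higher count stands for more frequent contact. It holds no expression, so the cell type label could not be set against marker genes. Hba-a1 and Hba-a2 are the α-globin genes, which encode the α chain of adult haemoglobin. In erythroid cells the promoters of these genes meet an upstream group of elements, R1, R2, R3, Rm and R4, several of them in introns of the neighbouring gene Nprl3. In mouse, R1 and R2 are known as the strongest enhancers of the group. The adult β-globin genes (Hbb) and Slc25a37, the gene of the mitochondrial iron importer, were captured from the same libraries and lie on other chromosomes.

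The promoter at the viewpoint is shown because every value below is a contact with it. The bases before the start of Hba-a1 were taken from RefSeq (GRCm38.p6, chr11:32283422-32283671, plus strand), with 4 promoter motifs in capitals on either strand. These are the TATA box as TATAA, the CCAAT box as its name spells it, and the CACCC box either by name or in the longer form with letters CACGCCC, which reads GGGCGTG on the other strand. Both α-globin genes matched an entry of that table.
Hba-a1: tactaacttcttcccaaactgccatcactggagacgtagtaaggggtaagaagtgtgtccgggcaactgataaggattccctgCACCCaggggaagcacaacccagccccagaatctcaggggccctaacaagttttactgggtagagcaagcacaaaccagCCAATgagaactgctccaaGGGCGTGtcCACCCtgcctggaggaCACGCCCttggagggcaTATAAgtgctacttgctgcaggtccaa
The Hba-a2 window of 300 bases shares an unbroken run of 297 bases with that of Hba-a1, so reads of the 2 promoters could hardly be told apart, and the deposited table combines them. Neither stretch of 250 bases before the start holds a GATC, the site DpnII cuts, against 41.9% of 32851 promoter stretches that do. TATAA was found in 22.8% of those stretches, CCAAT in 33.8%, CACCC in 52.0% and CACGCCC in 7.55%, and these matches are a description of the letters only.

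All further coordinates are mm9 on chromosome 11. The contacts measured were with R1 (32144385 to 32146566, 2 fragments), Rm (32164968 to 32166169, 3 fragments), R4 (32168682 to 32169921, 4 fragments) and the α-globin genes themselves (32170702 to 32204979, 53 fragments more than 2 kb from a viewpoint). R1 lies 38.1 kb from the nearer viewpoint, Rm 18.0 kb and R4 14.2 kb. The Hba tables held 70337 to 91121 reads in the R2R3_KO libraries, 386214 and 672464 reads in the single knockouts, and 112875 to 138216 reads in control. The singles were deposited in another table than the pair and control, with no control library of their own. A difference between tables and the loss of a single element therefore cannot be told apart, and a shift common to that table enters the sum of the singles once for R2_KO and once for R3_KO. In the column headers the sample numbers run on from R1R2_KO to control and start again at R2R3_KO. The headers do not say what these numbers stand for. If the pair and control were handled as separate sets, a difference between sets and the deletion cannot be told apart either.

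Contact is given as Hba reads per 100000 reads on chromosome 11 outside 2 kb of the viewpoints. To set libraries of different tables on one scale, the log2 value was reduced by the mean log2 contact of 2 anchors in the same library, the β-globin locus control region seen from Hbb (chr7:110994810-111023773) and the region upstream of Slc25a37 seen from its promoter (chr14:69906474-69959889). The control mean was set to 0. Relative to control the mean of the anchors was lower by 0.42 on the log2 scale in R2R3_KO (value -0.42, SD 0.06, n = 3), and it was 0.07 in R2_KO and -0.19 in R3_KO. Anchoring therefore added 0.31 to the pair less the sum of the singles at every region alike, as the subtraction does by construction. Intervals for single libraries are 95% Poisson intervals; PCR reads carried no molecular identifiers, so they cover counting error only.

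The deleted elements were nearly without contact in the pair and less completely so in the singles. On chromosome reads without the anchors, contact with the R2 block (32150268 to 32151881) in R2R3_KO was 10.1% ± 0.38 (SD, n = 3) of control, and in R2_KO it was 19.0%. For the R3 block (32155867 to 32157248) it was 8.33% ± 2.31 in R2R3_KO and 31.5% in R3_KO. Block ends were set by fragments under 50% of the other singles in the single knockout, which makes the low values of R2_KO and R3_KO circular. The highest fragment inside the limit stood at 48.1% for R2 and 43.0% for R3, and the lowest outside at 62.9% and 66.8%.

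Fragment by fragment, the pair and the singles differed more. At 32150623 to 32151061, inside R2, each R2R3_KO library had 0 reads, R2_KO had 109 reads (6.74% of the other singles), and control had 463, 540 and 537 reads. At 32156488 to 32156889, inside R3, each R2R3_KO library had 0 reads, R3_KO had 372 reads in a far deeper library, which is 26.0% of the other singles after scaling, and control had 323, 308 and 327 reads. The neighbouring R3 fragment 32156382 to 32156487 had 0 reads in each R2R3_KO library and 171 reads in R3_KO (25.7% of the other singles), against 130, 154 and 145 reads in control. A count of 0 allows up to 3 reads in each library. R3_KO thus kept reads on fragments that were at 0 in all 3 libraries of the pair. What those reads stand for was not tested, and the values of R3_KO below carry this limit.

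R1, the element left standing at the far end of the cluster, was the region where the pair lay furthest below the sum of the singles. Anchored contact with R1 was 1125, 1077 and 1095 per 100000 in R2R3_KO, 1189 in R2_KO, 1257 in R3_KO, and 1179.6, 1029.6 and 1064 in control. The pair lay within the control range, and both singles lay above every library of the pair and of control. On the log2 scale against control, R2R3_KO was at 0.01 (SD 0.03, n = 3, exact permutation p = 0.9), R2_KO at 0.13 (0.07 to 0.18) and R3_KO at 0.21 (0.16 to 0.25). The singles summed to 0.33, and the pair less that sum was -0.32. It was below 0 in all 9 combinations of 1 pair library with 1 control library, from -0.43 to -0.17. An SE of 0.13 follows if the lone single libraries vary like the 9 replicated ones. Among those 9, the 3 R1R2_KO libraries lack R1 itself, so part of that spread is over a deleted element. The SE gives no test, since the spread of R2_KO and R3_KO was not measured.

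On the anchored scale the negative value at R1 went with singles above control, while the pair overlapped control. Rm_KO and R4_KO, the other single knockouts that keep R1, stood at 0.25 and 0.28 there, as high as or higher than R2_KO and R3_KO. A shift of 0.16 common to the singles' table would bring the pair less the sum to 0. With the mean of those other singles as the zero of R2_KO and R3_KO, the value turned to 0.21.

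At Rm, the element between R3 and R4, the pair held more contact than control and the order was the opposite of that at R1. Anchored contact with Rm was 1490.1, 1900.5 and 1655 per 100000 in R2R3_KO, 1301 in R2_KO, 1444 in R3_KO, and 1310.1, 1168 and 1272 in control. All 3 R2R3_KO libraries lay above both singles and above control, though they spread more widely than the other groups. R2R3_KO was 0.42 above control on the log2 scale (SD 0.18, n = 3, exact permutation p = 0.1, 0.133 after adjustment over 8 regions), and 0.1 is the smallest p that 3 against 3 libraries allow. edgeR's quasi-likelihood test gave 0.43 with an adjusted p of 6.7e-06, among 5 of 8 regions past 0.05 (62.5%). Without the anchors the same contrast was 0.0058 (edgeR adjusted p = 0.947). R2_KO stood at 0.06 and R3_KO at 0.21, a sum of 0.27. The pair less the sum was 0.15, from -0.11 to 0.41 over the 9 combinations, with an SE of 0.20 on the same assumption, so neither direction stood out from the spread between libraries.

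At R4, the element nearest the genes, the pair and the sum did not separate. Anchored contact was 2438, 2624 and 2505 per 100000 in R2R3_KO, 2282 in R2_KO, 2337 in R3_KO, and 2017, 2295 and 2322 in control. The pair lay above all other libraries by a small margin. R2R3_KO was at 0.19 against control (SD 0.05, n = 3, exact permutation p = 0.1, adjusted 0.133), and edgeR gave 0.19 with an adjusted p of 0.0696. The singles were at 0.05 and 0.08, and the pair less the sum was 0.06, from -0.12 to 0.19 (SE 0.13 on the same assumption). Without the anchors edgeR gave -0.24 instead (adjusted p = 0.0199). There the groups overlapped, with 1897, 1882 and 1879 per 100000 in R2R3_KO, against 1855, 2389 and 2425 in control (exact permutation p = 0.4, 0.457 adjusted over 8 regions).

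Among the α-globin genes themselves the pair lay slightly below the sum of the singles. Anchored contact was 24732.5, 26086 and 24718 per 100000 in R2R3_KO, 23253 in R2_KO, 26444 in R3_KO, and 22979, 22033 and 23220.1 in control. R3_KO was the highest library of the 8, and R2_KO lay just above control. R2R3_KO was 0.15 above control (SD 0.04, n = 3, exact permutation p = 0.1, adjusted 0.133; edgeR adjusted p = 5.0e-04), R2_KO 0.03 and R3_KO 0.22. Set against the sum of 0.25, the pair was at -0.10, from -0.18 to -0.02 over the 9 combinations, with an SE of 0.06 on the same assumption. Without the anchors R2R3_KO was below control by -0.27 (edgeR adjusted p = 2.6e-05), so the direction of the contrast with control follows the scale. The libraries of R2R3_KO and control did not overlap in 6 of the 8 regions on the anchored scale (75%).

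**Figure D1:**
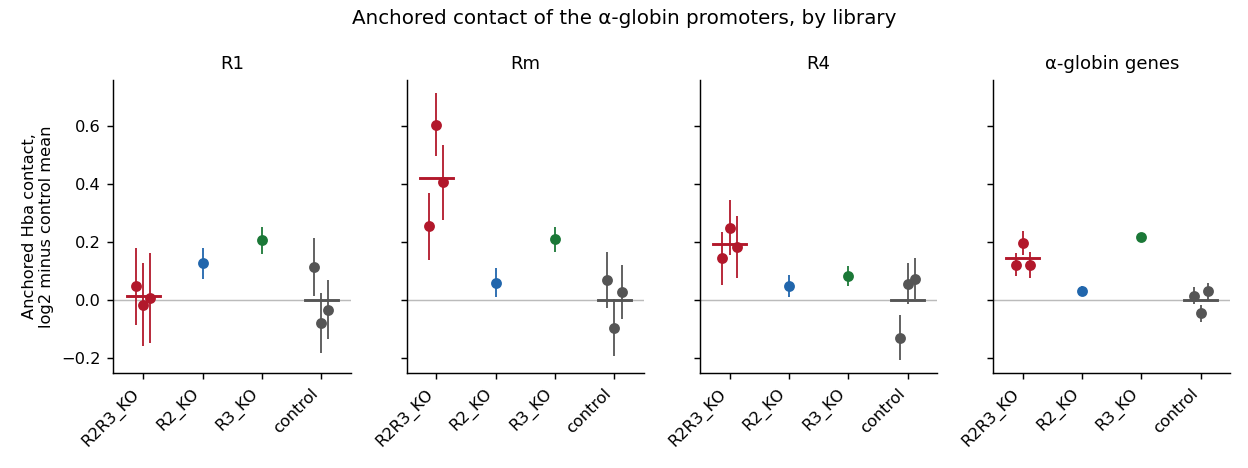
Anchored contact of the α-globin promoters with R1, Rm, R4 and the α-globin genes in each library, as log2 minus the control mean. Points are libraries with 95% counting intervals and short lines are means of 3 libraries. R2R3_KO overlaps control at R1 (0.01), where R2_KO (0.13) and R3_KO (0.21) are higher, and lies above both singles at Rm (0.42).

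Between the elements, the pair was lowest from R1 to R2 and from R2 to R3. Leaving out the anchors lowers the pair alike in every stretch, so it cannot change this order. These stretches were laid out after the data were seen, and the values that follow are anchored unless stated. The fragments from R1 to R2 (32146567 to 32150267) were at -0.37 in R2R3_KO (SD 0.03, n = 3, exact permutation p = 0.1, 0.15 adjusted over 6 stretches), -0.38 in R2_KO and 0.03 in R3_KO. The pair less the sum was -0.03 here, from -0.12 to 0.08 over the 9 combinations. Without the anchors the stretch was at -0.79 in R2R3_KO, -0.30 in R2_KO and -0.15 in R3_KO, and the pair less the sum was -0.34, below 0 in 9 of 9 combinations. From R2 to R3 (32151882 to 32155866) R2R3_KO was at -0.35 (exact permutation p = 0.1, adjusted 0.15), R2_KO at -0.51 and R3_KO at -0.08, and the pair less the sum was 0.24 (-0.066 without the anchors). From Rm to R4 the pair was at 0.31 (exact permutation p = 0.1, adjusted 0.15) and the singles at 0.20 and 0.22, which gave -0.11 (-0.42 without the anchors). From R3 to Rm, beside the deleted R3, R2R3_KO was at 0.05 (exact permutation p = 0.4), R2_KO at -0.19 and R3_KO at -0.06, and the pair less the sum was 0.30. From R4 to the genes, a single fragment beside no deleted site, R2R3_KO was at -0.01 (exact permutation p = 0.8), R2_KO at -0.17 and R3_KO at -0.14, which also gave 0.30. Without the anchors R2R3_KO was at -0.37 and -0.43 in these 2 stretches, and the pair less the sum at -0.0090 and -0.0053. Upstream of R1 the pair less the sum was 0.29 with the anchors and -0.019 without. Over the cluster outside all 5 elements (32139865 to 32170701), R2R3_KO was at -0.04 (edgeR adjusted p = 0.443), R2_KO at -0.21 and R3_KO at 0.02, so the pair lay above the sum by 0.15. Without the anchors R2R3_KO was at -0.46 (edgeR adjusted p = 1.3e-09, exact permutation p = 0.1, 0.16 adjusted over 8 regions). The pair less the sum turned to -0.16, below 0 in 9 of 9 combinations.

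Outside the cluster the pair lay above the sum of the singles on the anchored scale. The region far upstream (31949955 to 32079920) was at 0.94 in R2R3_KO (SD 0.06, n = 3; edgeR adjusted p = 2.5e-12), 0.13 in R2_KO and 0.20 in R3_KO, a pair less sum of 0.61. The upstream genes (32080071 to 32135979) gave 0.54 in R2R3_KO (edgeR adjusted p = 8.3e-10), with 0.02 and 0.05 in R2_KO and R3_KO, and 0.47 for the pair less the sum. The downstream region (32204980 to 32320310) gave 0.49 in R2R3_KO (edgeR adjusted p = 1.8e-07), -0.09 in R2_KO and 0.04 in R3_KO, and 0.54 for the pair less the sum. For R2R3_KO against control the exact permutation p was 0.1 in each of these regions, 0.133 after adjustment over 8 regions. Without the anchors edgeR gave 0.52 far upstream (adjusted p = 2.4e-06), 0.12 at the upstream genes (adjusted p = 0.0199) and 0.07 downstream (adjusted p = 0.186), where the call was lost. The exact permutation p was then 0.1, 0.1 and 0.3, adjusted 0.16, 0.16 and 0.4. The pair less the sum was then 0.30, 0.16 and 0.23, above 0 in all 9 combinations for each. Other knockouts also stood above control at the flanks on the anchored scale. Far upstream, at the upstream genes and downstream, R1_KO was at 0.63, 0.31 and 0.47. Rm_KO was at 0.33, 0.19 and 0.23, and R4_KO at 0.51, 0.31 and 0.19. The R1R2_KO libraries were at 0.43 to 0.73 far upstream. With the other singles as the anchored zero of R2_KO and R3_KO, the pair less the sum was 1.59, 1.01 and 1.14. The flanks, which lie outside the enhancer group, stood further above the sum than any of the 4 regions on the anchored scale. Leaving out the anchors shifts all regions alike, so it cannot change this order.

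The sign of the pair less the sum depended on the scale at Rm, R4 and the α-globin genes, where the Hbb anchor alone gave 0.013. The choice of zero turned it at R1 and the α-globin genes, on the anchored scale only. With chromosome reads and no anchor it was -0.63 at R1, -0.15 at Rm, -0.25 at R4 and -0.41 at the α-globin genes. With the reads of the 3 Hba flanks as the scale, chosen after the data were seen, it was -0.83 at R1, -0.36 at Rm, -0.45 at R4 and -0.62 at the α-globin genes, each below 0 in 9 of 9 combinations. With the anchors and the other single knockouts as the zero of R2_KO and R3_KO it was above 0 everywhere: 0.21 at R1, 0.47 at Rm, 0.15 at R4 and 0.44 at the α-globin genes. Without the anchors that same change of zero left all 4 below 0, at -0.62 for R1, -0.46 for Rm, -0.70 for R4 and -0.44 for the α-globin genes. On the flank scale it also left all 4 below 0, from -0.99 at R4 to -0.68 at the α-globin genes. The other singles each lack an element of their own, so they are no control. R1 was the lowest of the 4 regions with the anchors. A library scale shifts all 4 regions alike, so this order holds by construction with no anchor and with the flanks. With the other singles as the zero, R4 was lowest.

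**Figure D2:**
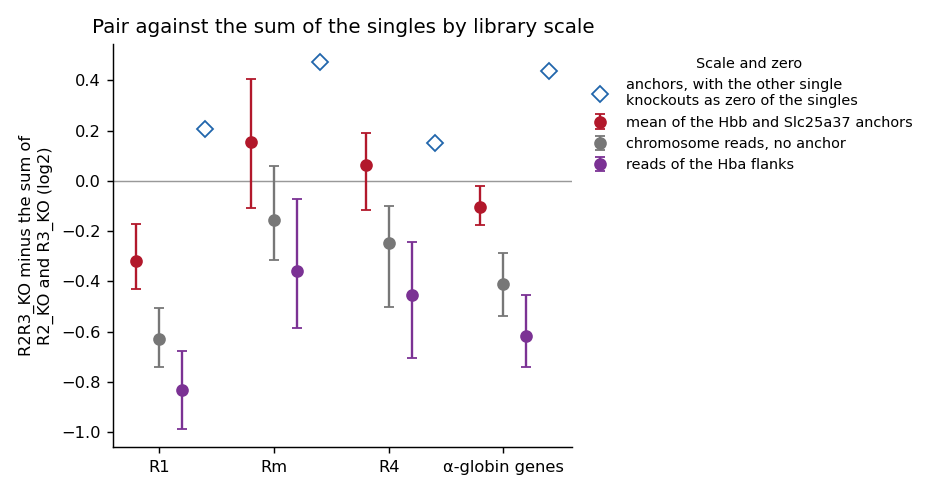
R2R3_KO minus the sum of R2_KO and R3_KO (log2) at R1, Rm, R4 and the α-globin genes. Filled points use the anchors, chromosome reads or the Hba flanks as the scale, with bars from the lowest to the highest of 9 pairings of a pair library with a control library; open diamonds take the other single knockouts as the zero of the singles. R1 runs from -0.83 to 0.21 over the 4 settings.

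Ratios between 2 regions of a library need no library scale, and 10 of them were computed after the data were seen. R1 over Rm was at -0.21, -0.62 and -0.40 in R2R3_KO, 0.07 in R2_KO, -0.0032 in R3_KO, and 0.05, 0.01 and -0.06 in control (log2, control mean 0). All 3 R2R3_KO libraries lay below the other 5, with an exact permutation p of 0.1 against control (0.167 adjusted over the 10 ratios). Against the sum of the singles the pair was at -0.47, from -0.75 to -0.23 over the 9 combinations. With R4_KO, the single that keeps both regions, as the zero it was -0.42.

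R1 over the α-globin genes gave the same order with smaller differences. It was at -0.07, -0.21 and -0.11 in R2R3_KO, 0.09 in R2_KO and -0.01 in R3_KO, against 0.10, -0.04 and -0.06 in control. The pair lay below every control library, the nearest by a small margin (exact permutation p = 0.1, adjusted 0.167). The pair less the sum was -0.22, from -0.36 to -0.06. Rm over the α-globin genes went the other way, with a mean of 0.28 in R2R3_KO, 0.03 in R2_KO and -0.01 in R3_KO, and a pair less sum of 0.26 (0.06 to 0.44). With the other singles that keep both regions as the zero, that pair less sum fell to 0.035. The same zero gave -0.15 for R1 over the genes. R1 relative to Rm and to the genes was thus below the sum in every combination, with the lone R2_KO and R3_KO libraries held fixed. If these varied like the replicated libraries, the SE would be 0.20 for R1 over Rm and 0.13 for R1 over the genes. For Rm over the genes it would be 0.16, and for R4 over the genes 0.14. The spread of R2_KO and R3_KO was not measured, so none of these ratios is a test against the sum. With control as the zero, the combinations for R4 over the genes (0.16, -0.0037 to 0.28) and Rm over R4 (0.09, -0.18 to 0.42) fell on both sides of 0. With the other singles as the zero, R4 over the genes turned to -0.36 and Rm over R4 was 0.23. R1 over R4 moved from -0.38 to -0.08 with that change.

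Against the Hba flanks, R1 and the genes were lower in the pair and slightly higher in the singles. R1 over the flanks was at -0.47, -0.61 and -0.57 in R2R3_KO, 0.14 in R2_KO and 0.14 in R3_KO, against 0.02, -0.09 and 0.08 in control. The α-globin genes over the flanks were at -0.39, -0.40 and -0.46 in R2R3_KO, 0.05 in R2_KO and 0.16 in R3_KO, against -0.08, -0.06 and 0.14 in control. The pair lay below the other 5 libraries in both ratios (exact permutation p = 0.1 each, adjusted 0.167).

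**Figure D3:**
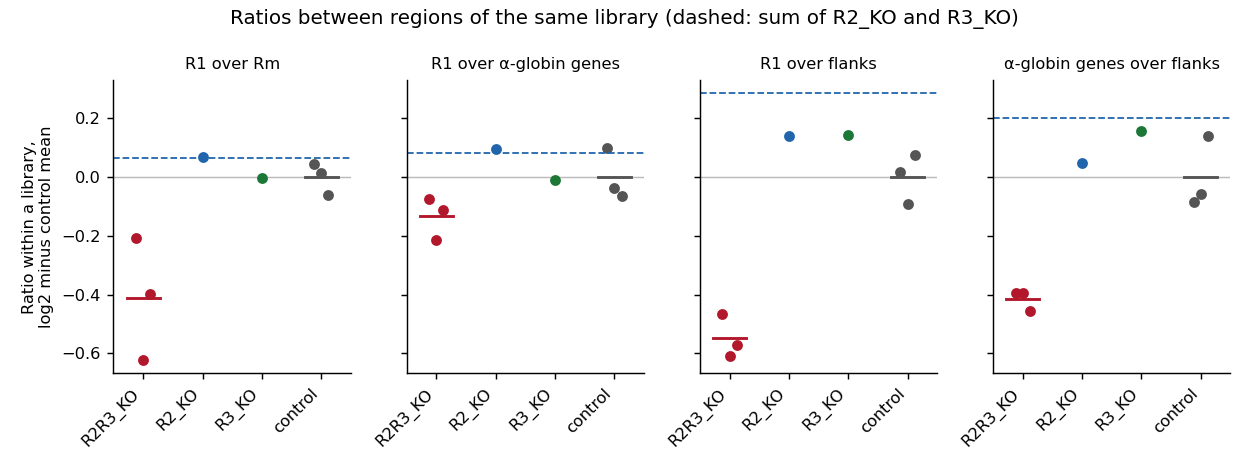
Ratios between regions of the same library, as log2 minus the control mean, for R1 over Rm, R1 over the α-globin genes, R1 over the Hba flanks and the α-globin genes over the flanks. Points are libraries, short lines are means of 3 libraries and the dashed line is the sum of R2_KO and R3_KO. In each panel the 3 R2R3_KO libraries lie below R2_KO, R3_KO and control.

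At single fragments outside the deleted blocks, 94 of 388 passed 0.05 for R2R3_KO against control on the anchored scale (24.2%), 11 of them lower (2.84%) and 83 higher (21.4%). Of the fragments that passed the count filter, 0 of 2 at R1, 1 of 3 at Rm, 1 of 4 at R4 and 8 of 52 at the α-globin genes were among them, shares that lay near or below that of all fragments except at Rm, where 3 fragments were tested. Without the anchors 57 passed (14.7%), 51 lower (13.1%) and 6 higher (1.55%). For the pair less the sum, 386 fragments had a mean of at least 10 reads in the 9 replicated libraries and at least 10 in R2_KO and in R3_KO, of 2202 outside the blocks within 500 kb of the viewpoints. It was below 0 in 100 of them (25.9%), under -1 in 3 (0.777%) and above 1 in 83 (21.5%), with a median of 0.44. Both fragments of R1 were below 0, none of the 3 of Rm, 2 of the 4 of R4 and 28 of the 52 of the α-globin genes that passed, whose median was -0.11.

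The 2 fragments of R1 agreed in direction. At 32144385 to 32145278 the reads were 219, 187 and 146 in R2R3_KO, 1370 in R2_KO and 1854 in R3_KO, against 378, 366 and 378 in control, and the pair less the sum was -0.42. At 32145279 to 32146566 it was -0.22. In neither did the anchored contrast of R2R3_KO with control pass (edgeR adjusted p = 0.759 and 0.691).

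At Rm the fragment nearest the genes, 32165890 to 32166169, carried the call. Its anchored level was 644 ± 54.8 per 100000 in R2R3_KO (SD, n = 3), 483 in R2_KO and 518 in R3_KO, against 418 ± 25.6 in control (log2 change 0.62, edgeR adjusted p = 3.4e-04). The pair less the sum was 0.11 there, 0.07 at 32165529 to 32165889 and 0.47 at 32164968 to 32165528.

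R4 split by fragment length. Its 2 longer fragments, 32168682 to 32169411 and 32169528 to 32169921, gave -0.32 and -0.09 for the pair less the sum. Its 2 fragments of 58 bp, 32169412 to 32169469 and 32169470 to 32169527, gave 0.72 and 0.81. In the first of these R2R3_KO was at 0.22, R2_KO at -0.18 and R3_KO at -0.31 against control. The value of R4 as a whole comes from the summed reads of all 4, most of them in the longer fragments.

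Short fragments behaved alike over the whole locus. Of the 386 fragments, the 50 under 100 bp had a median of 1.14 for the pair less the sum, and 0 of 50 were below 0. The 336 of 100 bp or more had a median of 0.32, and 100 of them were below 0 (29.8%). The short ones stood at a median of 0.37 in R2R3_KO, -0.34 in R2_KO and -0.42 in R3_KO against control. R1_KO (-0.26), Rm_KO (-0.40) and R4_KO (-0.30), of the same table as R2_KO, were low at them as well, and the R1R2_KO libraries, of the table of control, were not (0.05). The low level at short fragments was thus shared by the 5 single knockouts of that table, whichever element they lack. Why it differs between the tables was not tested.

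**Figure D4:**
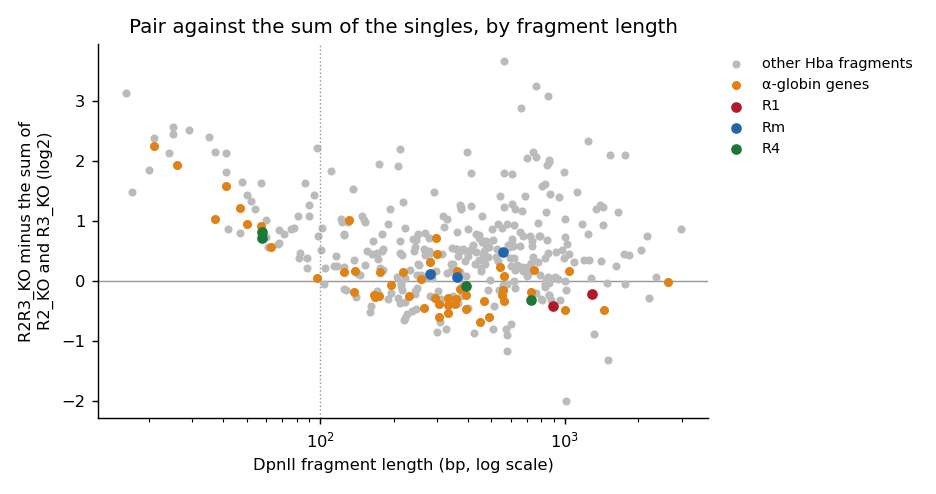
R2R3_KO minus the sum of R2_KO and R3_KO (log2, anchored) for 386 DpnII fragments within 500 kb of the α-globin viewpoints, against fragment length in bp on a log axis, with the dotted line at 100 bp. Coloured points belong to R1, Rm, R4 and the α-globin genes. All 50 fragments under 100 bp lie above 0.

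Without the fragments under 100 bp, left out of regions, anchors and scales alike after the data were seen, the order of the regions changed at R4. The pair less the sum was -0.25 at R1, 0.22 at Rm, -0.15 at R4 and -0.11 at the α-globin genes. R1 and Rm hold no short fragment, and their ratio stayed at -0.47. R1 over the α-globin genes gave -0.14 in place of -0.22, and R1 over R4 -0.10 in place of -0.38. R2R3_KO against control at R4 was then 0.18 (edgeR adjusted p = 0.0190).

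In the α-globin gene region the lowest fragments for the pair less the sum were 32204332 to 32204781 (-0.68), at the far end of the region, and the neighbours 32189417 to 32189723 (-0.61) and 32188926 to 32189416 (-0.61), between the viewpoints. In the last of these R2R3_KO was at 0.09 against control, R2_KO at 0.20 and R3_KO at 0.51. The highest were 32176929 to 32176949 (2.24), 32174208 to 32174233 (1.93) and 32204939 to 32204979 (1.58), all under 50 bp. The 43 fragments of 100 bp or more in the region had a median of -0.23, with 28 below 0, and the 9 shorter ones a median of 1.02, with 0 below 0.

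In the rest of the window the extremes rested on few reads. The lowest was 31728489 to 31729503 (-2.01), with 8, 12 and 10 reads in R2R3_KO against 10, 4 and 5 in control, followed by 32096663 to 32098159 (-1.32) and 32063718 to 32064299 (-1.17). The highest were 31716504 to 31717065 (3.66), 31727728 to 31728488 (3.26), which borders the lowest fragment, and 32224309 to 32224324 (3.14). In the fragment at 3.66 R2R3_KO had 13, 9 and 6 reads, R2_KO 14 and R3_KO 20, against 17, 11 and 14 in control.

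The pair lacking R1 and R2 shares R2_KO and the control libraries with this comparison, so its values are given beside it without a test. R2R3_KO less R2_KO and R3_KO gave 0.15 at Rm, 0.06 at R4 and -0.10 at the α-globin genes, and R1R2_KO less R1_KO and R2_KO gave -0.52, -0.68 and -0.65 on the same anchored scale. Without the anchors the first pair gave -0.15, -0.25 and -0.41 and the other -0.42, -0.58 and -0.56. With control as the zero, the values of the R1R2 pair were below 0 on both scales, and those of the R2R3 pair at Rm and R4 changed sign between them. R1_KO and R2_KO also lie in the singles' table. The other singles were not tried as the zero for the R1R2 pair, so the pairs were not compared on that setting.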

How the data were processed

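NG Capture-C contacts of 3 promoter viewpoints were measured in 15 samples. The authors deposited raw counts of reads for each DpnII fragment (mm9) in 6 tables. Trim Galore and Bowtie are named in the submitters' processing notes. The sources used here give neither their versions nor how reads shared by the α-globin copies were counted. Replicates were kept apart. Each of the 3 tables with control has 7 more columns without a matching sample, which were not used.

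Viewpoints were taken as gaps of at least 1500 bp in the tables, and reads within 2 kb of them were left out. From the deposited counts, region sums were scaled as described above. Exact two-sided permutation tests compared 3 against 3 libraries. edgeR 4.0.16 in R 4.3.3 (quasi-likelihood test, 9 libraries of control, R1R2_KO and R2R3_KO, anchored library sizes, Benjamini-Hochberg at 0.05) tested 8 regions, and 388 fragments within 500 kb with a mean of 10 or more reads, R2 and R3 blocks left out. On simulated counts for R2R3_KO against control over 388 fragments, it recovered 36% of log2 changes of 0.5 and 73% of changes of 1, and called 2.13% of unchanged ones. The counts were simulated and fitted with the same anchored library sizes, so these shares do not cover an error of scale. Python 3.11.15 with scipy 1.17.1 gave the other values. Sums of singles had no test, with 1 library each.

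Members, regions and lists were chosen with earlier results of these data known. Named were the 4 regions, the deleted blocks, each fragment of R1, Rm and R4 that passed, and the 3 lowest and 3 highest fragments in the gene region and in the rest of the window. Chi-square over its degrees of freedom between R2R3_KO libraries 1 and 3 was 1.52 at Hba, 1.62 at Hbb and 1.00 at Slc25a37. Libraries 1 and 2 gave 1.98, 2.03 and 1.18, and libraries 2 and 3 gave 1.78, 2.01 and 1.47. The value of 1.00 shows no spread beyond counting at Slc25a37. All libraries were kept as separate replicates, as labelled. The alternatives tried were other anchors and scales, filters, DESeq2 1.42.0, limma 3.58.1, a replicate block and leaving out each library of R2R3_KO and control.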

Additional observations from a re-analysis of the deposited data

How the results depend on the processing

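For the pair less the sum of the singles at R1, the anchor alone from Hbb gave -0.20 and from Slc25a37 -0.44, no anchor -0.63, the flank scale -0.83 and the other singles as zero 0.21. At Rm no anchor gave -0.15, the flank scale -0.36 and the other singles as zero 0.47. At R4 these gave -0.25, -0.45 and 0.15, the Hbb anchor 0.18, the Slc25a37 anchor -0.056 and fragments of 100 bp or more -0.15. At the α-globin genes the Hbb anchor gave 0.013, the Slc25a37 anchor -0.22, no anchor -0.41, the flank scale -0.62 and the other singles as zero 0.44. Leaving out 1 library of R2R3_KO or control gave -0.38 to -0.28 at R1, 0.06 to 0.24 at Rm, 0.02 to 0.13 at R4 and -0.13 to -0.08 at the α-globin genes. R2_KO and R3_KO have 1 library each and could not be left out, so these ranges do not cover their spread. The local scale, the whole-genome scale and a sum on the linear scale moved none of the 4 by more than the spread between libraries.

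R2R3_KO against control turned direction with no anchor at R1 (-0.40), R4 (-0.24) and the α-globin genes (-0.27), where edgeR's adjusted p was 1.9e-04, 0.0199 and 2.6e-05. The flank scale gave -0.55, -0.14, -0.38 and -0.42 at R1, Rm, R4 and the α-globin genes. At Rm no anchor ended the call (0.0058). R4 passed 0.05 with the Slc25a37 anchor (0.21), the whole-genome scale (0.24), DESeq2 (0.19), limma (0.19) and fragments of 100 bp or more (0.18). Leaving out 1 library gave -0.03 to 0.07 at R1, 0.33 to 0.51 at Rm, 0.13 to 0.23 at R4 and 0.12 to 0.16 at the α-globin genes. The flank scale and the limit of 100 bp were chosen after seeing the data. The cause of these changes was not tested.

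The 94 fragments past 0.05 became 57 with no anchor, 45 with TMM factors, and 48 to 105 without 1 library, the lowest being 48 without control library 3, 52 without R2R3_KO library 2 and 57 without control library 2. The 86 fragments beyond a log2 size of 1 became 47 with a mean of 20 or more reads and 193 at a size of 0.5. They became 157 with the other singles as zero and 81 to 98 without 1 library of R2R3_KO or control. Numbers of replicates did not pair R2R3_KO with control (correlations of deviations -0.05, -0.04 and -0.03 over 388 fragments). With the replicate number as a block 101 fragments passed, and no call at the 4 regions changed.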
